A study of Homo sapiens with 2 samples.

Results

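This report describes 38 genes that build the entry gate of the secretory pathway: the signal recognition particle and its receptor, the SEC61 channel, the translocon-associated proteins, signal peptidase, oligosaccharyltransferase, and the FKBP isomerases, KDEL receptors and cargo lectins that act on proteins inside or leaving the endoplasmic reticulum (ER). The genes were listed by name, and every probe set that the platform annotation gives to 1 of them alone was taken. This gave 86 probe sets for 36 of the 38 genes, out of 54613 probe sets and 19775 genes in the whole table. SEC61G and KDELR2 had no probe set of their own and are not analysed here.

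Expression arrays were compared for 2 samples of HL60, an established human promyelocytic leukaemia line whose label gives the cell type as hematopoietic stem. The eltrombopag sample came from a culture given the drug, a small-molecule thrombopoietin receptor agonist that also binds iron, at 3 µg/ml for 36 h. The untreated sample carries no label for vehicle or culture time, so the drug, its vehicle and the time in culture cannot be told apart. With 1 sample per group no difference below has a replicate check, no p-value is given, and the number of arrays limits the precision.

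In this pathway the signal recognition particle binds a signal sequence as it leaves the ribosome and docks the ribosome at the ER membrane. The chain then passes through SEC61, signal peptidase removes the signal sequence, and oligosaccharyltransferase adds a sugar tree to asparagine residues. Cells that secrete much protein, such as plasma cells, carry this machinery at high levels, and the transcription factor XBP1 of the unfolded protein response is known to raise many of its genes.

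Values are MAS5 signal intensities, a linear measure of brightness for a probe set, and log2 ratios are eltrombopag over untreated. Signals under a floor of 56.9, the 60th percentile of both arrays pooled, were raised to it before the ratio was taken, and a gene above it in at least 1 sample is called measured. A gene with several probe sets is given by its brightest one unless stated. The median log2 ratio of all 10314 measured genes was -0.12, so a member near 0 lay above the typical gene of these arrays. The only measure of error is the scatter between probe sets of 1 gene, and it leaves out variation between cultures. Its SD was 0.21 on the log2 scale, estimated from the median deviation between the 2 brightest probe sets over 4374 genes. The members scattered more widely, as given below, so 0.21 is too small a yardstick for them.

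Markers of the labelled cell line were mixed. Of 17 promyelocyte and myeloid markers with a probe set of their own, 13 were measured, among them MPO, the myeloperoxidase of azurophil granules, at 1467 with eltrombopag and 1556 untreated, while SPI1, a myeloid transcription factor, ELANE, LYZ and CYBB lay below the floor in both samples. Of 17 plasma cell markers, 12 were measured. JCHAIN, the joining chain of polymeric antibodies, had a signal of 4866 in the eltrombopag sample and 7972 in the untreated sample, whereas IGKC, IGHM, IGHA1, IGHG1 and CD79A lay below the floor in both. TNFRSF17, MZB1 and POU2AF1 had 1314, 1295 and 1167 untreated and 307.4, 1064 and 395.6 with eltrombopag. The identity of the culture was not tested. The other marker lists were sparse, with 2 of 4 B cell, 1 of 5 T and NK cell and 2 of 2 erythroid genes measured. The arrays measured bulk RNA, so fewer cells of a type and less RNA per cell cannot be told apart.

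The machinery as a whole differed little between the samples, and its parts went in different directions. Of the 36 genes, 34 were measured and 33 lay above the floor in both samples. FKBP11 was the 1 member at least 2-fold lower with eltrombopag, beside 2.27% of all measured genes, and 0 members were at least 2-fold higher, beside 0.65%. At 1.5-fold, 2 members, SRP72 and SEC61A1, were higher and 3 members, FKBP11, SPCS1 and SRP9, were lower, with SEC61A1 and SRP9 only just past the threshold. That is 5.88% and 8.82% of the measured members, beside 3.49% and 11.8% of all measured genes, so neither share stands far from its background. After median centring 2 members passed in each direction, beside 6.26% of all measured genes upward and 7.16% downward. The median log2 ratio of the measured members was 0.05. A ratio above 0 was found for 18 members, or 52.9%, beside 36.6% of all measured genes, one below 0 for 16, beside 63.4%, and 23 lay above the median of all measured genes.

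**Figure D1:**
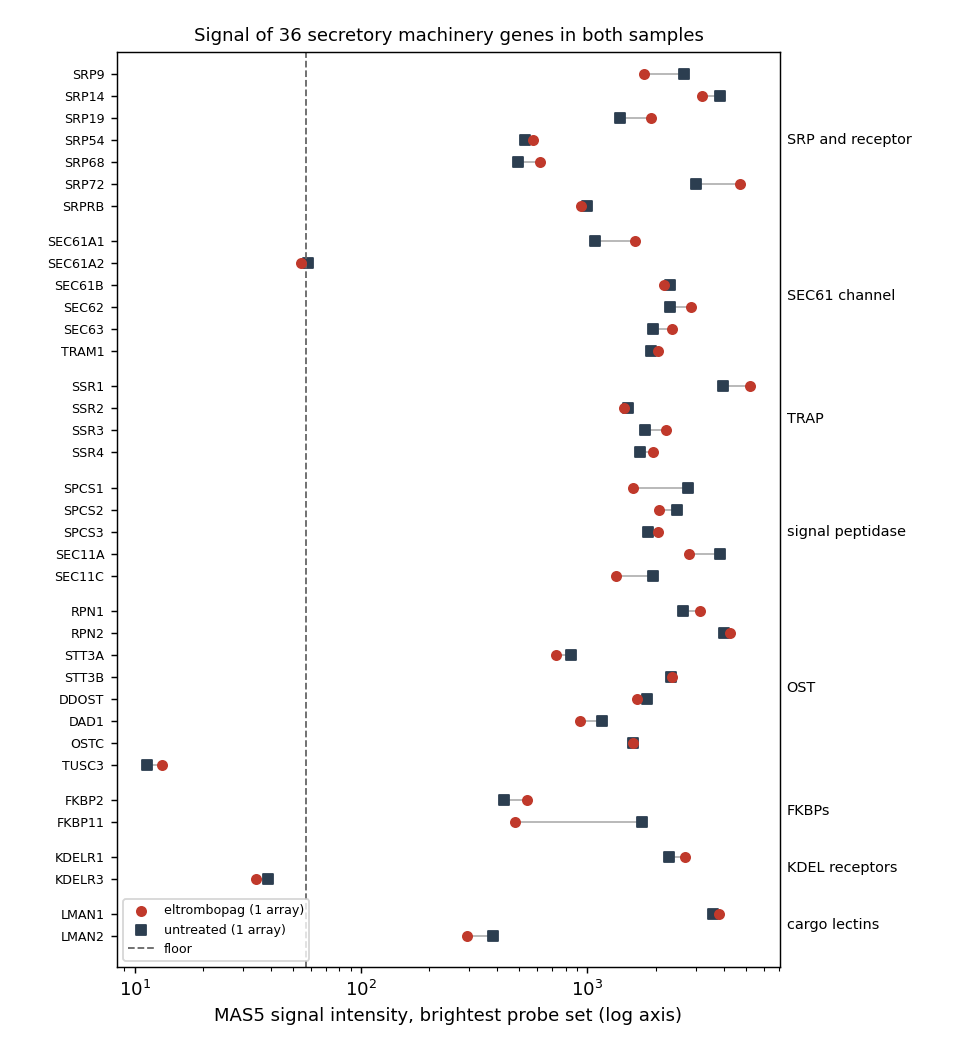
Signal of the brightest probe set (x, log axis) of 36 genes grouped by role (y), with the eltrombopag array as circles, the untreated array as squares and the floor of 56.9 as a dashed line. FKBP11 shows the widest gap, at 479.2 with eltrombopag and 1738 untreated, and TUSC3 and KDELR3 sit below the floor in both samples.

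In the signal recognition particle the sign of the ratio differed by domain, though some of its genes differed little between the samples. SRP9 and SRP14, the pair that forms the Alu domain and slows translation until the ribosome has docked, were both lower with eltrombopag. SRP9 had a signal of 1776 in the eltrombopag sample and 2674 in the untreated sample, 1.51-fold lower, and SRP14 had 3197 with eltrombopag and 3830 untreated, a log2 ratio of -0.26. The 4 proteins of the domain that reads the signal sequence were all higher. Of all measured genes, 36.6% had a ratio above 0 and 63.4% one below 0, so 2 lower genes are ordinary here. SRP72, which with SRP68 forms a scaffold on the particle's RNA, had the highest log2 ratio of all members, with a signal of 4693 in the eltrombopag sample against 3027 in the untreated sample, or 1.55-fold higher.

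Every one of the 5 SRP72 probe sets above the floor was higher, with log2 ratios of 0.46 to 0.90. SRP19, which helps assemble the particle, had 1901 with eltrombopag and 1394 untreated, a log2 ratio of 0.45. SRP68 had 615.2 with eltrombopag and 495.0 untreated, and SRP54, the GTPase that holds the signal sequence, had 572.0 with eltrombopag and 527.7 untreated, log2 ratios of 0.31 and 0.12. The last lies within the scatter between probe sets. SRPRB, the receptor subunit anchored in the ER membrane, had 936.9 with eltrombopag and 998.2 untreated and was lower in all 3 of its probe sets, though after median centring its brightest one turned to 0.05. The median of the 4 signal-reading proteins was 0.38 and that of the Alu pair -0.43, a split made after their values were seen, and each gene but SRP72 rests on 1 probe set, which for SRP9, SRP19 and SRP68 carries the suffix _s_at of sets that match several transcripts. Both directions held under median centring, quantile normalization and lowess. There SRP9 came to -0.45, -0.50 and -0.51 and fell short of 1.5-fold. SRP14 came to -0.12, -0.16 and -0.18, within the scatter between probe sets, so the lower side rests mainly on SRP9.

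The promoter of SRP72, the member with the highest ratio, is shown as RefSeq gives it on GRCh38.p14 at chr4:56467367-56467666, plus strand, 250 bases before to 50 after the gene's start. Capitals mark CCACG, one of the boxes that make up the ER stress response element.

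SRP72: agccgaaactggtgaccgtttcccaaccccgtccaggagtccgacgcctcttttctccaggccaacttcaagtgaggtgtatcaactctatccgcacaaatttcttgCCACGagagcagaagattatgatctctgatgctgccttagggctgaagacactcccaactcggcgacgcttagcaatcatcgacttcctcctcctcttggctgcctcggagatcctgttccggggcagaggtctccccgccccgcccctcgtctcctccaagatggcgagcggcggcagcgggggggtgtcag

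In the channel, the pore subunit and the helpers SEC62 and SEC63 were higher in their brightest probe sets. SEC61A1, which forms the pore, had a signal of 1619 in the eltrombopag sample against 1077 in the untreated sample, a log2 ratio of 0.59. Its second probe set, of the suffix _x_at that marks possible cross-hybridization, was level at 421.0 with eltrombopag and 419.2 untreated, a log2 ratio of 0.01, and the mean of both was 0.30. SEC61A2, a second pore gene, stayed at the floor, with 54.3 in the eltrombopag sample and 58.3 in the untreated sample. SEC61B, a small subunit, had 2187 with eltrombopag and 2322 untreated.

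SEC63, a J-domain protein that brings the chaperone BiP to the channel, had 2367 in the eltrombopag sample and 1938 in the untreated sample. It was higher in 3 of 4 probe sets, with log2 ratios of 0.29, 0.37 and 0.60, and the dimmest gave -0.15. SEC62, its partner for chains imported after translation, had 2875 with eltrombopag and 2306 untreated, a log2 ratio of 0.32. The next 3 by brightness gave -0.13, 0.08 and -0.78, and the dimmest, at the floor with eltrombopag, also gave -0.78, so SEC62 has no settled direction. TRAM1, a membrane protein beside the channel, had 2053 with eltrombopag and 1917 untreated, a log2 ratio of 0.10, and its dimmer probe sets gave -0.65 and -0.27.

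The 4 TRAP subunits, which sit beside SEC61 and help some signal sequences to open it, had a median log2 ratio of 0.24, and all 4 lay above the median of all measured genes. SSR1, the alpha subunit, had 5213 in the eltrombopag sample and 3961 in the untreated sample, 1.32-fold higher. It was higher in 5 of 6 probe sets, by up to 0.77 on the log2 scale, and the dimmest of the 6 gave -0.43. SSR3, the gamma subunit, had 2212 with eltrombopag and 1798 untreated and was higher in 4 of 4 probe sets, with log2 ratios of 0.08 to 0.38. SSR4, the delta subunit, had 1940 with eltrombopag and 1713 untreated. SSR2, the beta subunit, had 1449 with eltrombopag and 1506 untreated, and this ratio of -0.06 became positive under all 3 other scalings, at 0.02 to 0.08.

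Signal peptidase had a lower median than the other complexes described here. Of its 5 genes, 4 had a ratio below 0, where 63.4% of all measured genes did, and the median log2 ratio was -0.46. SPCS1, an accessory subunit, had a signal of 1586 in the eltrombopag sample against 2784 in the untreated sample, 1.76-fold lower, and stayed at least 1.5-fold lower under all 3 other scalings. The catalytic subunits SEC11A and SEC11C, alternatives to each other in the complex, were lower to a like degree: SEC11A had 2794 with eltrombopag and 3844 untreated, and SEC11C had 1335 with eltrombopag and 1944 untreated, log2 ratios of -0.46 and -0.54.

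The second SEC11A probe set went further, with 739.6 in the eltrombopag sample and 1482 in the untreated sample, just past 2-fold lower. SPCS2, another accessory subunit, had 2068 with eltrombopag and 2474 untreated in its brightest probe set, a log2 ratio of -0.26, but 641.3 with eltrombopag and 1712 untreated in the next, a log2 ratio of -1.42. SPCS3, a further accessory subunit, went the other way in all 3 of its probe sets. They gave log2 ratios of 0.14, 1.20 and 0.55 from brightest to dimmest, and in the second of these the signal was 1646 with eltrombopag and 715.4 untreated. With the mean over probe sets, 3 of the 5 genes were at least 1.5-fold lower and SPCS3 was at least 1.5-fold higher, at 0.63, beside 11.2% and 2.77% of all measured genes under that setting.

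**Figure D2:**
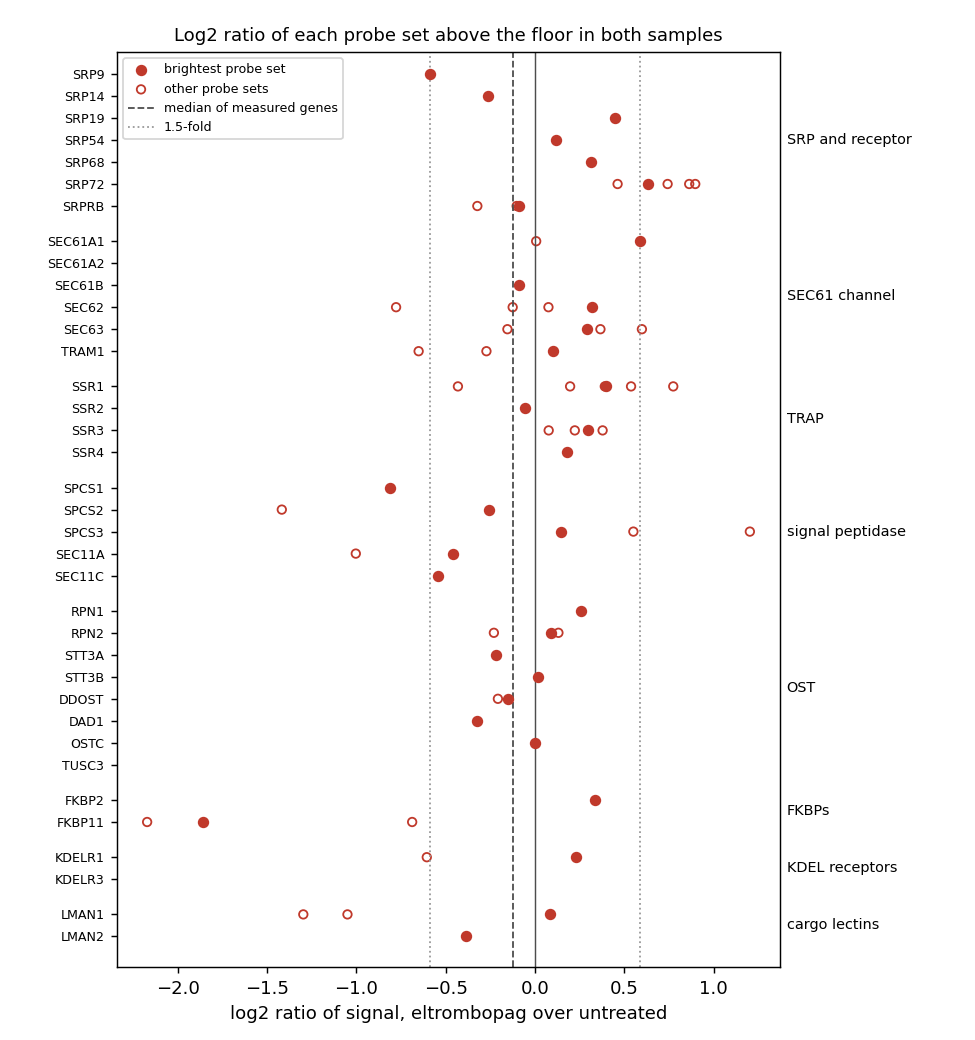
Log2 ratio, eltrombopag over untreated (x), of each probe set that exceeded the floor in both samples, by gene and role (y), with the brightest probe set of a gene filled, the others open, the median of measured genes dashed and 1.5-fold dotted. All SRP72, SSR3 and SPCS3 probe sets lie right of 0 and all FKBP11, SEC11A and SPCS2 probe sets left of it, while those of SEC62, LMAN1 and KDELR1 fall on both sides.

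Oligosaccharyltransferase was close to level. Its 7 measured subunits had log2 ratios from -0.32 to 0.26 with a median of 0.00, and none reached 1.5-fold. RPN1, the subunit that holds some substrates at the enzyme, had 3152 in the eltrombopag sample and 2641 in the untreated sample, the highest ratio at 0.26. DAD1, a small membrane subunit, had 923.8 with eltrombopag and 1156 untreated, the lowest at -0.32. The 2 catalytic subunits were close: STT3A, which works as the chain enters, had 727.3 with eltrombopag and 845.6 untreated, and STT3B, which also modifies sites after entry, had 2359 with eltrombopag and 2332 untreated. RPN2, DDOST and OSTC had ratios of 0.09, -0.15 and 0.00. TUSC3, an oxidoreductase subunit of the STT3B enzyme, lay below the floor in both samples in all 5 probe sets, with 13.2 in the eltrombopag sample and 11.4 in the untreated sample in the brightest, while MAGT1, its alternative, had 1017 with eltrombopag and 993.1 untreated.

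FKBP11, a prolyl isomerase of the ER that is abundant in secretory cells, stood apart from the other members. Its brightest probe set had a signal of 479.2 in the eltrombopag sample against 1738 in the untreated sample, 3.63-fold lower. The second had 116.6 with eltrombopag and 524.8 untreated, a log2 ratio of -2.17, and the third 61.9 with eltrombopag and 99.7 untreated, a log2 ratio of -0.69 close to the floor. The gene stayed more than 2-fold lower under all 8 alternatives, with log2 ratios from -2.17 to -1.57. FKBP2, a related isomerase, was not lower, with 542.1 in the eltrombopag sample and 429.3 in the untreated sample, a log2 ratio of 0.34.

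Plasma cell markers were lower in the same sample. Of the 12 measured ones, 11 had a log2 ratio below 0 and 5 were at least 2-fold lower, beside 63.4% and 2.27% of all measured genes, with a list median of -0.82. TNFRSF17, the receptor BCMA, had 307.4 in the eltrombopag sample and 1314 in the untreated sample. The signal summed over the 17 genes was 13686 with eltrombopag and 20691 untreated, with JCHAIN the largest part of both sums. XBP1, also on that list, was near level at 3268 with eltrombopag and 3441 untreated, and TENT5C had 2447 with eltrombopag and 2656 untreated. These are RNA signals, and the activity of the XBP1 protein was not measured. DERL3 was the 1 marker above 0, at 287.2 with eltrombopag and 185.3 untreated, though its second probe set gave -0.53. Lower values were not confined to plasma cell genes. In the promyelocyte and myeloid list 10 of 13 measured genes had a ratio below 0, and 2 were at least 2-fold lower: CEBPA, a granulocyte transcription factor, at 279.1 with eltrombopag and 818.7 untreated, and CSF3R, the G-CSF receptor, at 251.3 with eltrombopag and 564.4 untreated. That list had a median of -0.21 and a summed signal of 12914 with eltrombopag and 14077 untreated. SRGN gave the largest part of both sums, at 7685 with eltrombopag and 7160 untreated, so they say little about the other genes. Its dimmer probe sets gave -0.88 and 0.38. The B cell and erythroid lists had 2 measured genes each, with medians of -0.75 and -0.61. PAX5 and HBB, 1 of the 2 in each list, passed the floor only untreated, so their ratios could not lie above 0. These medians therefore give no direction for either list. The part of these lists in the FKBP11 and SEC11C differences was not tested.

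The FKBP11 promoter is shown because this gene had the lowest ratio among the members. RefSeq places the window, the more upstream of 2 for the gene, at chr12:48925443-48925742 on the minus strand of GRCh38.p14. Capitals again mark CCACG.

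FKBP11: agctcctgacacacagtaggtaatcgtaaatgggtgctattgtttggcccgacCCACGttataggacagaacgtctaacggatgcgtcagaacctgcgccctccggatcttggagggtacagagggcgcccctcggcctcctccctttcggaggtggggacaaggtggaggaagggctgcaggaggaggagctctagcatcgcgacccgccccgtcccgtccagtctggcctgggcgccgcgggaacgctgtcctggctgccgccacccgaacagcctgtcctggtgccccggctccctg

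Genes of retrieval and export stayed under 1.5-fold in their brightest probe sets and did not share a direction. KDELR1, a Golgi receptor that returns escaped ER proteins, had 2686 in the eltrombopag sample and 2290 in the untreated sample, a log2 ratio of 0.23, but its second probe set had 131.6 with eltrombopag and 200.2 untreated, a log2 ratio of -0.61. KDELR3, a related receptor, lay below the floor in all 3 probe sets. LMAN1, the lectin that carries clotting factors out of the ER, had 3816 with eltrombopag and 3596 untreated in its brightest probe set, a log2 ratio of 0.09. Its other probe sets were both over 2-fold lower, at 81.5 with eltrombopag and 200.3 untreated and at 61.6 with eltrombopag and 127.5 untreated. LMAN2, a related lectin, had 293.2 with eltrombopag and 383.0 untreated, a log2 ratio of -0.39.

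Probe sets of a member disagreed more than those of the typical gene. For the 16 members with 2 or more probe sets past the floor on both arrays, the 2 brightest differed by a median of 0.38 on the log2 scale, against 0.21 over 4374 genes. All such probe sets were higher for 4 of these members, all were lower for 5, and 7 had both directions. The brighter of the 2 had the higher ratio in 12 of the 16, beside 55.4% of all such genes. Of the measured members, 12 are given by a probe set of the suffix _s_at and 4 by one of _x_at, which may also bind related transcripts or pseudogenes.

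**Figure D3:**
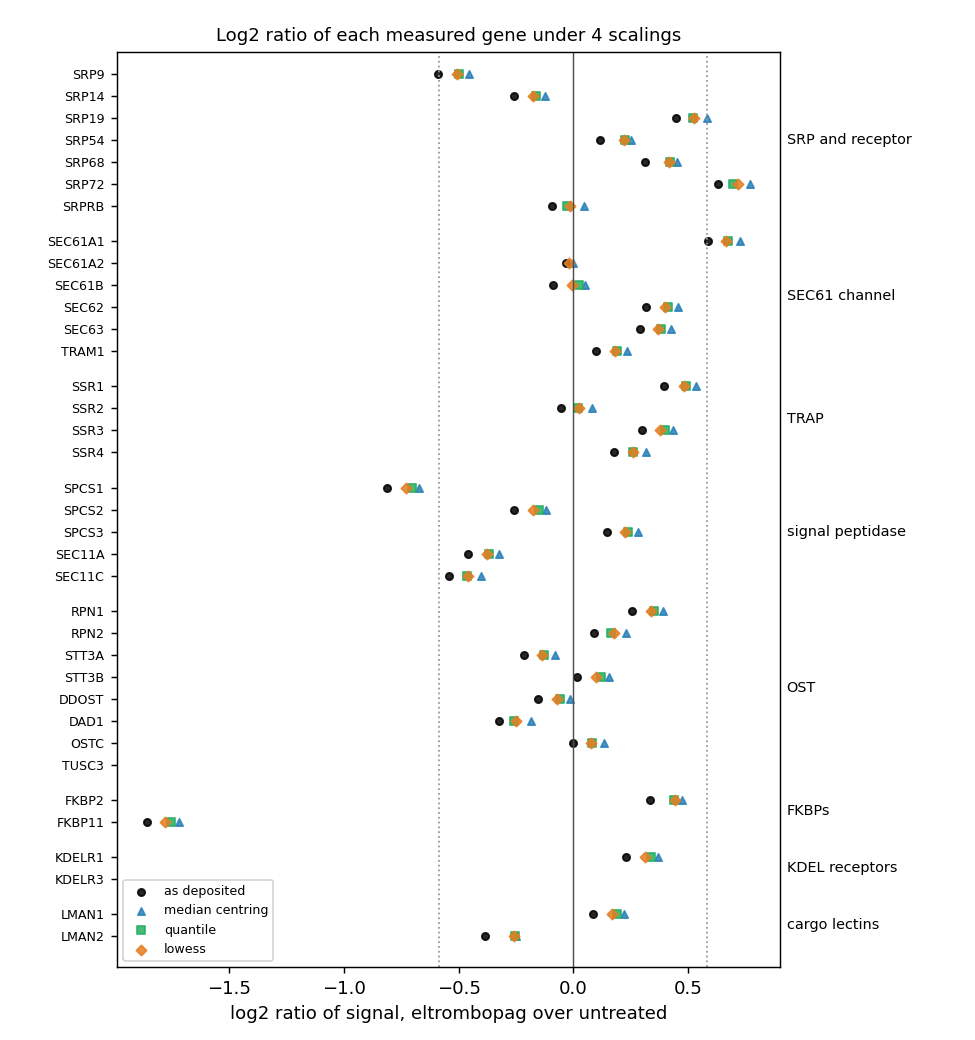
Log2 ratio of each measured gene (x), eltrombopag over untreated, as deposited and after median centring, quantile normalization and lowess, by gene and role (y). The other scalings shift members to the right, and 29 of 34 keep their sign, while SEC61A2, SEC61B, SSR2, SRPRB and OSTC, each within 0.09 of 0 as deposited, do not.

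Other genes of the same pathway were examined as lists. Of 17 measured genes listed under translocon, targeting and membrane insertion, 0 passed 1.5-fold upward and 3 passed it downward, with a median log2 ratio of -0.29. SND1, at 0.12, was counted among them by name, and its part in ER targeting was not tested. For this list and those that follow, 3.49% of all measured genes passed upward and 11.8% downward. GET1, a receptor for tail-anchored proteins, had 349.4 in the eltrombopag sample and 656.1 in the untreated sample, and TRAM2, a relative of TRAM1, had 424.3 with eltrombopag and 754.2 untreated. EMC2, of the membrane insertase, had a ratio of 0.46 and HM13, the signal peptide peptidase, 0.16. The 5 other genes listed with oligosaccharyltransferase, not all of them subunits, had a median of 0.03. Of these 5, 1, the small subunit OST4, was at least 1.5-fold lower, with 916.9 with eltrombopag and 1539 untreated. Their other extremes were TMEM258 at -0.02, MLEC at 0.20 and KRTCAP2 at 0.14.

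For the enzymes that build the lipid-linked sugar, 1 of 18 measured genes passed 1.5-fold upward and 2 passed it downward, with a median of -0.16. MPDU1, which is needed for the use of dolichol-linked sugars, had 70.8 in the eltrombopag sample, near the floor, and 148.9 in the untreated sample. DPM2, of dolichol phosphate mannose synthase, had a ratio of -0.86 and ALG2, a mannosyltransferase, 0.48. ALG13, of the second step, had 2061 with eltrombopag and 1353 untreated, and its next probe set gave 0.62, but the dimmer ones gave -0.81 and, with eltrombopag at the floor, -0.93. Of 11 genes of glucose trimming, the calnexin cycle and ER mannosidases, 1, EDEM2, was at least 1.5-fold higher, with 227.9 with eltrombopag and 137.4 untreated, and 0 were at least 1.5-fold lower. CALR, the lectin chaperone calreticulin, had a ratio of 0.32, the mannosidase MAN1B1 -0.24 and the glucosidase MOGS -0.18.

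Among 5 other ER prolyl isomerases, 2 were at least 1.5-fold higher and 1 lower. FKBP14 had 562.0 in the eltrombopag sample and 253.2 in the untreated sample, 2.22-fold higher, and a ratio of 0.69 in a second probe set. PPIC had 159.7 with eltrombopag and 82.2 untreated, while FKBP9 had 62.6 with eltrombopag and 122.7 untreated. FKBP11 and FKBP14 thus went opposite ways. Of 16 other cargo receptors and retrieval genes, 0 were at least 1.5-fold higher and 1, ERGIC1 at -0.65, lower, with BCAP29 at -0.58, TMED5 at 0.34 and ERGIC2 at 0.31. Over these 6 lists together, 72 measured genes had a median of -0.11, near that of all measured genes.

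ER chaperones and disulfide enzymes, the other arm of the folding machinery, stood higher than the gate itself. Of 18 measured, 9 passed 1.5-fold upward and 0 downward, beside 3.49% and 11.8% of all measured genes, and their median log2 ratio was 0.61, set beside 0.05 for the 34 measured members. With _x_at and _s_at probe sets left out it was 0.33 over 14 chaperones and 0.00 over 27 members. The highest were MANF, with 2340 in the eltrombopag sample and 976.7 in the untreated sample, and ERO1B, with 450.9 with eltrombopag and 198.5 untreated. SELENOS and PDIA6 were the lowest, at -0.30 and -0.26, though of the other PDIA6 probe sets 2 gave 0.24 and 0.29 and the dimmest gave -0.40. Of 10 measured sensors and factors of the unfolded protein response, CREB3L2, at 0.70 in its brightest probe set but -0.35 in the next, was at least 1.5-fold higher, and MBTPS2, the site-2 protease that frees ATF6, was lower at -0.72. DDIT3 had a ratio of 0.54 and ATF6B of -0.50. No test of the difference between these lists and the members can be made with 1 sample per group.

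**Figure D4:**
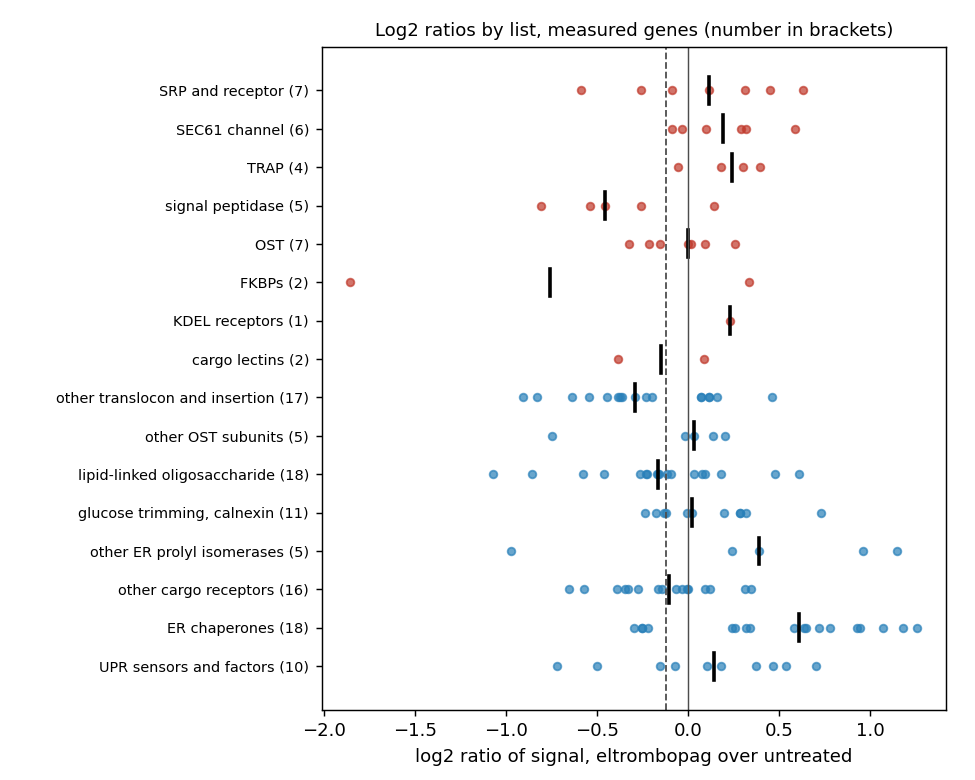
Log2 ratio of each measured gene (x), eltrombopag over untreated, by list (y), with members in red, other pathway lists in blue, medians as black bars and the median of all measured genes dashed at -0.12. Signal peptidase sits left, at a median of -0.46, and the ER chaperones right, at 0.61.

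Promoter windows of the members were searched on both strands for elements of the unfolded protein response. RefSeq windows, 300 bases each, were held for 32 of the 38 genes. TGACGTGG, the unfolded protein response element bound by XBP1, was found in 5 of the 32 genes, beside 0.73% of all 35116 windows and 1.21% of 8500 measured genes with a window. Of these 5, SSR3, SSR4, SEC62 and SRP19 had ratios of 0.30, 0.18, 0.32 and 0.45 in their brightest probe sets, and KDELR3 lay below the floor. SEC62 had no settled direction over its probe sets. A ratio above 0 was found for 18 of the 34 measured members and 36.6% of all measured genes. Any part of the element in these ratios was not tested. The full ER stress response element, CCAAT and CCACG with 9 bases between, was found in none of the 32, and neither was its second form, ATTGG and CCACG with 1 base between, beside 0.08% and 0.05% of all windows. CCAAT alone was found in 17 genes and CCACG alone in 24, beside 43.9% and 57.7% of measured genes. CCACG overlaps the reverse complement of TGACGTGG by construction.

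The 5 stretches that hold the element are shown for comparison, each read along the gene's own strand on GRCh38.p14 with the element, here as its reverse complement, in capitals. They lie at chr3:156554133-156554192 on the minus strand for SSR3, chrX:153794513-153794572 on the plus strand for SSR4, chr3:169966764-169966823 on the plus strand for SEC62, chr5:112861149-112861208 on the plus strand for SRP19 and chr22:38468024-38468083 on the plus strand for KDELR3. For SSR3 and SSR4 the window is that of one of several start sites.
SSR3: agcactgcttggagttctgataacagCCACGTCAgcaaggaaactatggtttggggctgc
SSR4: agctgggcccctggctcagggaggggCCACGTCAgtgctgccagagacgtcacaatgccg
SEC62: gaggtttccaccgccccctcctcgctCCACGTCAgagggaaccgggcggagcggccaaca
SRP19: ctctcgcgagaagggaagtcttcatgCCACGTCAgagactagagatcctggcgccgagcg
KDELR3: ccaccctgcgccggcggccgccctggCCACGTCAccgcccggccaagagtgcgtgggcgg

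The element begins 41 bases before the start site in SSR3, 129 in SSR4, 17 in SEC62, 112 in SRP19 and 46 in KDELR3. A match is a description of these letters and not evidence that a factor binds there.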

How the data were processed

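Signal intensity per probe set, on a linear scale, was deposited by the authors for 2 arrays, 1 per group; the submitters' processing notes name MAS5, with no version or scaling target in the sources used here. Values were used as deposited. Probe sets were named through the platform annotation (41091 name 1 gene) with symbols updated through RefSeq GRCh38.p14. The floor, the brightest probe set per gene and thresholds of 2-fold and 1.5-fold are as given above. No test of the treatment was made. The members and gene lists were chosen with earlier results of these data known; pathway genes named are the 2 that lay farthest from 0 in each direction, above the floor in both samples, and others were chosen after their values were seen. Alternatives were 3 other scalings, a floor at the 50th percentile, at the 75th percentile or absent (signals under 1 set to 1), averaging over probe sets, and no _x_at or _s_at probe sets. The 2-fold counting was tested on simulated data, with changes larger than 2-fold planted in genes well above the floor. The 1.5-fold counting was not tested in this way. Promoters are RefSeq's. Protein sequences planned for comparison are not used here. Analyses used Python 3.11.15, pandas 2.3.3 and statsmodels 0.14.6.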

Additional observations from a re-analysis of the deposited data

How the results depend on the processing

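Over 8 alternatives, 1 member passed 2-fold downward and 0 passed it upward in each. The share of all measured genes that passed downward ran from 1.27% after median centring to 6.7% with no floor. Upward it ran from 0.483% with the floor at the 75th percentile to 6.04% with no floor, so the counts have unlike backgrounds. The median log2 ratio of the measured members ranged from -0.07 with the mean over probe sets to 0.19 after median centring, which moved the median of all measured genes to 0.01. Members at least 1.5-fold higher numbered 1 without _x_at and _s_at probe sets, where 3.74% of all measured genes passed and 27 members were measured. That member was SEC63, at 0.60, with SRP72 at 0.46 and no probe set left for SEC61A1. Members at least 1.5-fold lower numbered 6 with the mean over probe sets, where 11.2% of all measured genes passed. The 2 higher members under that mean, beside 2.77%, were SRP72 at 0.72 and SPCS3 at 0.63, with SEC61A1 at 0.30. Under that mean 9 of 34 member ratios moved by more than the scatter between probe sets, and SEC62, TRAM1, KDELR1 and LMAN1 came to -0.26, -0.27, -0.19 and -0.75. Without _x_at and _s_at probe sets 6 of 27 did, with TRAM1 at -0.27, SEC63 at 0.60 and SRPRB at -0.32. The 3 other scalings moved none by that much. No paired analysis was possible because each group holds 1 sample. MAS5 signals near the floor, as for SEC61A2, have large relative error.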

Other observations

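Across the 33 members above the floor in both samples, the log2 ratio and the genomic length of the gene had Spearman's rho = 0.24 and Pearson's r = 0.20, beside 0.13 and 0.11 across 9588 genes. Against mean log2 signal the members gave rho = 0.15 and r = 0.18, beside 0.09 and 0.08 across 9597 genes. These are descriptions across genes that share 2 arrays, and genes are not independent replicates.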
